A study of Mus musculus with 12 samples.

Results

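The connexin genes Gja1, Gja4, Gja5 and Gjc1 were followed across 4 blood vessels on 12 Affymetrix arrays. They were chosen by symbol, as the connexins known from the vessel wall, and all 4 were found among the 19938 genes measured, each with 1 probe set of its own. Every array held total RNA from untreated wild-type C57BL/6 mice, 8 weeks old, with no transgene in any group. The arrays fell into the ascending and descending segments of the aorta, the coronary artery and the superior mesenteric artery, which supplies the small intestine, with 3 arrays labelled biological replicates in each. The series set out to compare vessels whose walls arise from different embryonic sources. The labels do not say whether an array came from 1 animal or from pooled animals, so p-values cover only the spread among these arrays, which may be technical.

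Connexins are proteins with 4 membrane-spanning stretches. Groups of 6 form a hemichannel, and hemichannels of neighbouring cells dock to form gap junctions, through which ions and small molecules pass from cell to cell. In arteries, gap junctions couple endothelial cells to each other and to smooth muscle, and carry electrical signals along the wall. Gja5 (protein Cx40) and Gja4 (Cx37) are the connexins of arterial endothelium, and Gja5 is also found in atrial muscle and the conduction system of the heart. Gja1 (Cx43) is the main connexin of ventricular muscle and is found in many other cell types, and Gjc1 (Cx45) is found in smooth muscle and early heart.

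Of the 4 genes, Gja1 and Gja5 are the ones whose levels separated vessels, so the 250 bases before their RefSeq starts are shown, read from the gene's strand. RefSeq held such a window for 3 of the 4 genes, in the build GRCm38.p6. The window of Gja1 lies at chr10:56377050-56377299 on the plus strand and that of Gja5 at chr3:97032152-97032401 on the plus strand. Capitals mark an AP-1 motif in Gja1 and a GC box in Gja5.
Gja1: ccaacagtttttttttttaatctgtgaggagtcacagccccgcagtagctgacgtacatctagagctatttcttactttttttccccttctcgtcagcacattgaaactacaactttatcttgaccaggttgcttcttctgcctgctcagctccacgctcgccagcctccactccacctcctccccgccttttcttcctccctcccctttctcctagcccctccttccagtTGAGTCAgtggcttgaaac
Gja5: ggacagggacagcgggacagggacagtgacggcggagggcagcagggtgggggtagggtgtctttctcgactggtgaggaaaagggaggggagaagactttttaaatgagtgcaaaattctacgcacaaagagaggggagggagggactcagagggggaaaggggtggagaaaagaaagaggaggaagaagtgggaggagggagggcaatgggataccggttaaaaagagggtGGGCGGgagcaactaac
Both strands were searched for 6 motifs picked with the sequences in view: AP-1 (TGANTCA), the GC box (GGGCGG), a T-box site (AGGTGTGA), an NKX2-5 site (TNAAGTG), a SOX site (AACAAT) and a KLF site (CCACACCC). The Gja1 window had 1 match, TGAGTCA from 19 to 13 bases before the start, and 6.75% of 32851 RefSeq promoter windows of this length held an AP-1 match. The Gja5 window had 1 match, GGGCGG from 17 to 12 bases before the start, and a GC box was in 32.7% of windows. The Gja4 window had 1 match too, GGGCGG from 79 to 74 bases before the start. The T-box, NKX2-5, SOX and KLF letters were in none of these 3 windows, against 1.12%, 10.1%, 9.42% and 3.2% of all windows. GC content was 50% for Gja1, 61.2% for Gja4 and 56.4% for Gja5, with a median of 52.4% over all windows.

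Array medians lay between 4.04 and 4.18 on the log2 scale, and precision is limited by the 3 arrays of a vessel. Levels are means ± SD over 3 arrays and differences are in log2 units ± SE from limma, a linear model fitted to all genes. A gene passed at a Benjamini-Hochberg adjusted p under 0.05. Some arrays carried other tissues. Ascending aorta replicate 1 stood apart, with a B cell and plasma cell list at 8.03 against 3.80 and 3.98 in replicates 2 and 3, and a fibroblast list at 5.88 against 8.54 and 8.45. Differences of the members and counts of the lists are therefore also given over the other 11 arrays. With no covariate, a pair without ascending aorta keeps its difference there. Only its SE and p-value change, since all vessels share an estimate of the spread. The coronary artery arrays went partly against their label: the smooth muscle list averaged 5.14 to 5.50 there, and a shared cardiomyocyte list 8.92 to 9.25, against 3.75 to 5.45 on the other arrays. In superior mesenteric artery the smooth muscle list was at 8.96, 6.00 and 6.44 in replicates 1, 2 and 3, and pancreatic acinar genes were at 9.02 in replicate 3 alone, with 5.14 and 3.76 in the others. Fewer cells of a type and less RNA per cell cannot be told apart in whole tissue, and detection calls were not used here, so a fold against a low level may understate the change.

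Across the 4 vessels, Gja5 passed the moderated F test (limma adjusted p = 0.0369) and the other members did not, at limma adjusted p = 0.102 for Gja1, 0.594 for Gja4 and 0.931 for Gjc1. The count of 1 of 4 stands against 4.72% of all genes tested. The adipocyte genes described further on also bear on this call: with their mean as a covariate Gja5 did not pass (limma adjusted p = 0.326 over 12 arrays and 0.0596 over 11) and Gja1 did (limma adjusted p = 0.00189 and 0.00298). Over 11 arrays with no covariate both Gja5 (limma adjusted p = 1.87e-05) and Gja1 (limma adjusted p = 0.000682) passed, against 9.15% of all genes. Gja5 no longer passed without any 1 array of a vessel other than ascending aorta (limma adjusted p up to 0.113).

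**Figure D1:**
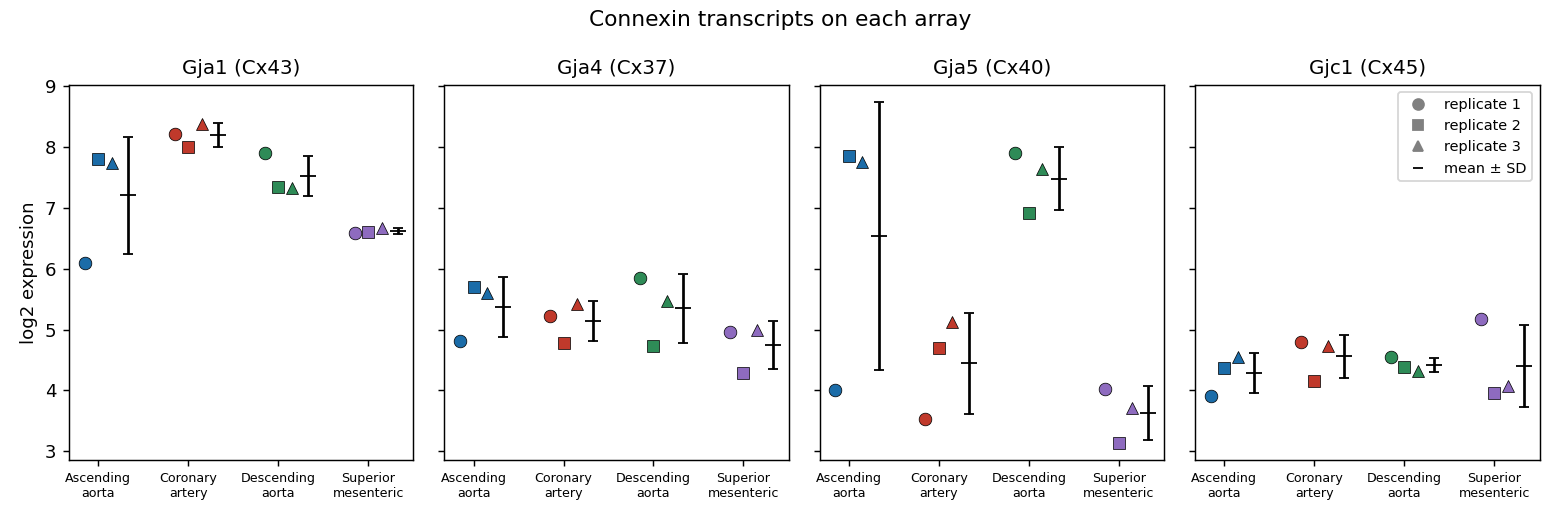
Log2 expression of Gja1, Gja4, Gja5 and Gjc1 (y axis) in each of the 4 vessels (x axis); points are single arrays, shaped by replicate number, and bars are the mean ± SD of 3 arrays. Gja5 lies between 6.91 and 7.90 on 5 of the 6 aortic arrays and at 4.0 on ascending aorta replicate 1, while Gja1 is highest in coronary artery.

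Gja5 was the member that varied most, over a range of 4.77 log2 units across the 12 arrays. It stood high in aorta and low in both branch arteries. In descending aorta it was at 7.90, 6.91 and 7.64 (7.48 ± 0.51), and in ascending aorta at 4.0, 7.86 and 7.77 (6.54 ± 2.20). In coronary artery it was at 3.52, 4.69 and 5.13 (4.45 ± 0.83), and in superior mesenteric artery at 4.02, 3.14 and 3.71 (3.62 ± 0.45). The descending aorta arrays overlapped neither branch artery, and ascending aorta overlapped both through replicate 1 only.

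Between descending aorta and superior mesenteric artery Gja5 was higher in the aorta by 3.86 ± 0.82, or 14.5-fold with a 95% interval of 4.24 to 49.6 (limma adjusted p = 0.0226). With Gja5 as the 1 member past the threshold, the count can be read against 3.2% of all genes in this comparison. Gja1 and Gja5 were the 2 of 4 members whose groups did not overlap here, against 22.9% of all genes. The Gja5 difference did not pass without any 1 descending aorta array or without superior mesenteric artery replicate 2 or 3, with limma adjusted p up to 0.0892. Its value lay between 3.62 and 4.15 over the 12 fits that each left out 1 array. Over 11 arrays its adjusted p was 3.61e-05 in limma. Adding a lymphoid covariate, the mean level of B cell and T cell genes, made the difference smaller, 2.51 ± 0.51, and it still passed (limma adjusted p = 0.0194).

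The calls of the other Gja5 contrasts between aorta and branch arteries changed when ascending aorta replicate 1 was left out. Against coronary artery, descending aorta was higher by 3.04 ± 0.82 (limma adjusted p = 0.0758 over 12 arrays and 0.000245 over 11). This difference holds no ascending aorta array and was the same over 11 arrays, where its SE was 0.38. Ascending aorta was higher than coronary artery by 2.10 ± 0.82 over 12 arrays (limma adjusted p = 0.249) and by 3.37 ± 0.42 over 11 (limma adjusted p = 0.000378). Against superior mesenteric artery the ascending aorta was higher by 2.92 ± 0.82 (limma adjusted p = 0.268), and by 4.19 ± 0.42 over 11 arrays (limma adjusted p = 0.000157). In that last fit replicates 2 and 3 of ascending aorta averaged 7.81, which is 18.2-fold above superior mesenteric artery with an interval of 9.70 to 34.3.

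In the order of Gja5 levels over 12 arrays, neighbouring vessels were not separated. Over 11 arrays the step from aorta to coronary artery passed for either segment, as given above, and the other two steps did not. Ascending minus descending aorta was -0.94 ± 0.82, with an interval from -2.71 to 0.83, and turned to 0.33 ± 0.42 over 11 arrays. Coronary minus superior mesenteric artery was 0.82 ± 0.82, with an interval from -0.95 to 2.60. Neither passed in limma, with adjusted p = 0.737 and 0.697 over 12 arrays and 0.941 and 0.252 over 11.

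Gja4, the partner of Gja5 in arterial endothelium, varied over 1.57 log2 units. Its arrays were at 4.81, 5.71 and 5.60 in ascending aorta, at 5.85, 4.73 and 5.46 in descending aorta, at 5.22, 4.79 and 5.42 in coronary artery and at 4.95, 4.29 and 4.995 in superior mesenteric artery. The 4 vessels overlapped in every pair. Superior mesenteric artery had the lowest mean, 4.75 ± 0.40, against 5.37 ± 0.49 in ascending and 5.35 ± 0.57 in descending aorta and 5.14 ± 0.32 in coronary artery. Descending aorta minus superior mesenteric artery was 0.60 ± 0.33, with a 95% interval from -0.11 to 1.32 (limma adjusted p = 0.454), and ascending aorta minus superior mesenteric artery was 0.62 ± 0.33, with an interval from -0.09 to 1.34 (limma adjusted p = 0.776). Over 11 arrays the latter was 0.91 ± 0.32 (limma adjusted p = 0.193) and the former 0.60 ± 0.29 (limma adjusted p = 0.29). No Gja4 difference passed in that fit. Across the 12 arrays Gja4 and Gja5 had a Pearson r of 0.732 and a Spearman rho of 0.720, given as a description since arrays of a vessel share their tissue.

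**Figure D2:**
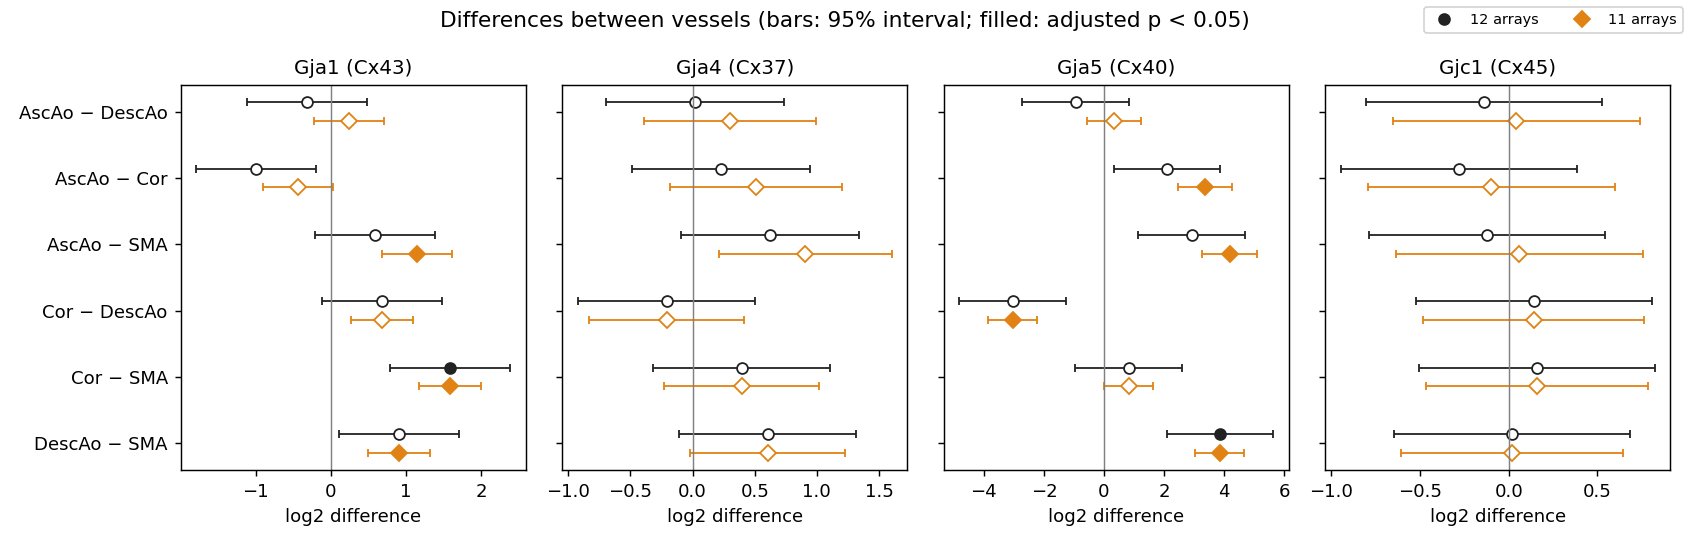
Log2 difference between 2 vessels (x axis) for each of the 6 pairs (y axis) and each connexin; AscAo and DescAo stand for the aortic segments, Cor for coronary and SMA for superior mesenteric artery. Bars are 95% intervals, circles use 12 arrays, diamonds leave out ascending aorta replicate 1, and filled symbols passed; 2 circles are filled, Gja1 for Cor − SMA and Gja5 for DescAo − SMA, and the x axes differ between panels.

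General endothelial transcripts did not follow the order of Gja5, while an arterial endothelial list had a positive correlation with it. The general list, of 18 genes, had a Pearson r with Gja5 of -0.297 over 12 arrays, and the arterial list, of 12 genes, one of 0.651, with 0.659 over 11 arrays. The general list was highest in superior mesenteric artery replicate 1, at 7.43, where Gja5 was at 4.02. On the 5 aortic arrays with high Gja5 the list averaged between 5.51 and 6.20. Pecam1, an adhesion molecule of endothelial cells, was at 9.41, 7.30 and 8.48 in superior mesenteric artery and at 8.41, 7.82 and 8.37 in descending aorta. For descending aorta minus superior mesenteric artery the list's median difference was -0.93, against -0.01 over all genes, with 0 members higher and 1 lower, Robo4, an endothelial guidance receptor, by 1.47 ± 0.35 (limma adjusted p = 0.0414). Over 11 arrays 0 were higher and 3 lower there, Robo4, Kdr and Emcn. With the general list's mean as a covariate, Gja5 was higher in descending aorta than in superior mesenteric artery by 4.93 ± 0.82 (limma adjusted p = 0.0065) and higher than in coronary artery by 3.95 ± 0.78 (limma adjusted p = 0.0131).

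Among the 12 genes of arterial endothelium, the list's mean was 5.18 ± 0.10 in descending aorta and 5.04 ± 0.21 in superior mesenteric artery, with a median difference of 0.01. One gene passed in this comparison, Nrp1, a co-receptor of VEGF and semaphorins, which was higher in descending aorta by 1.30 ± 0.27 (limma adjusted p = 0.0196). Over 11 arrays 3 were higher and 0 lower, Nrp1, Sox17 and Fbln5. Sox17, a transcription factor of arterial endothelium, was at 4.67, 4.29 and 4.51 in descending aorta and at 3.60, 3.27 and 2.68 in superior mesenteric artery. Its ascending aorta arrays were at 3.03, 4.62 and 4.71, with replicate 1 the low one, as for Gja5. The Sox17 difference between descending aorta and superior mesenteric artery was 1.31 ± 0.38 and did not pass over 12 arrays (limma adjusted p = 0.1), but passed over 11 (limma adjusted p = 0.00309). Other genes of the list lay the opposite way without passing in either fit. For descending aorta minus superior mesenteric artery these differences were -1.06 ± 0.64 for Cxcr4, a chemokine receptor, -0.83 ± 0.27 for Dll4, a Notch ligand, and -0.36 ± 0.39 for Efnb2, the arterial ephrin.

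Adipocyte transcripts moved with Gja5. A list of 8 shared adipocyte genes averaged between 8.28 and 9.04 on the 5 aortic arrays with high Gja5, was at 6.84 on ascending aorta replicate 1, and lay between 6.08 and 6.98 in the branch arteries. Of these 8 genes, 5 were higher in descending aorta than in superior mesenteric artery, with 0 lower, and the list's Pearson r with Gja5 was 0.888 over 12 arrays. Over 11 arrays all 8 were higher there. A list of 8 brown adipocyte genes had an r of 0.835 with Gja5, and 0.883 over 11 arrays. Its means fell in the same order as those of Gja5, from 7.74 ± 0.40 in descending and 7.15 ± 0.46 in ascending aorta to 5.98 ± 0.14 in coronary and 4.37 ± 0.51 in superior mesenteric artery. The shared list had another order, with 6.31 ± 0.20 in coronary and 6.70 ± 0.27 in superior mesenteric artery. For ascending aorta minus coronary artery the median difference of the brown genes was 0.12, and -0.05 over 11 arrays. In both fits 3 of the 8 were higher in ascending aorta and 0 lower. In descending aorta 5 of the 8 brown genes were higher than in superior mesenteric artery, with 0 lower, over 12 and over 11 arrays. With the shared list's mean as a covariate, Gja5 differed between descending aorta and superior mesenteric artery by 0.29 ± 1.05 (limma adjusted p = 0.972). Over 11 arrays the same fit gave 4.46 ± 1.39 (limma adjusted p = 0.766), where the SE without the covariate was 0.38. Of all genes, 0.00502% passed in this comparison with the covariate over 12 arrays and 0% over 11. Without the covariate these shares were 3.2% and 6.83%. Calls were lost across genes in general with it, so these fits cannot separate Gja5 from adipocyte content. Adipocyte content and vessel cannot be told apart in this design.

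**Figure D3:**
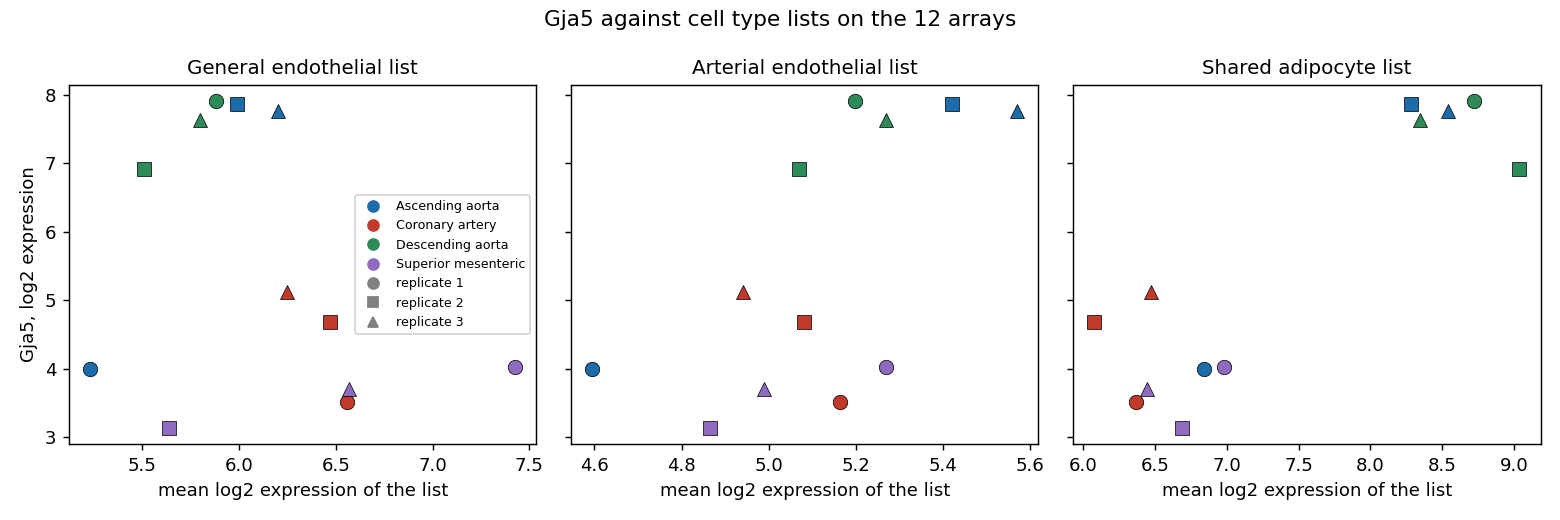
Gja5 log2 expression (y axis) against the mean log2 expression of the general endothelial, arterial endothelial and shared adipocyte lists (x axes), 1 point per array, coloured by vessel and shaped by replicate. The superior mesenteric artery array with the highest endothelial mean, 7.43, has Gja5 at 4.02, and the 5 arrays with Gja5 at 6.91 or higher all have an adipocyte mean of at least 8.28.

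Gja1 had another order, highest in coronary artery and lowest in superior mesenteric artery. In coronary artery it was at 8.22, 8.00 and 8.39 (8.20 ± 0.20), and in descending aorta at 7.90, 7.34 and 7.33 (7.53 ± 0.33). In ascending aorta it was at 6.10, 7.80 and 7.74 (7.21 ± 0.96), and in superior mesenteric artery at 6.58, 6.61 and 6.68 (6.62 ± 0.05). The coronary artery arrays lay above every other array, and the superior mesenteric artery arrays lay below every other array except ascending aorta replicate 1.

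Coronary artery exceeded superior mesenteric artery by 1.58 ± 0.37, or 2.99-fold with a 95% interval of 1.72 to 5.20 (limma adjusted p = 0.0351). This was the 1 of 4 members that passed in that comparison, in which 3.24% of all genes passed. It held in 4 of the 12 fits that each left out 1 array, namely those without an ascending aorta array or without descending aorta replicate 1. Its limma adjusted p reached 0.156 in the others, while the value stayed between 1.49 and 1.68, and over 11 arrays it was 0.000172. With the lymphoid covariate the difference was 1.01 ± 0.26 (limma adjusted p = 0.0478). Coronary minus descending aorta was 0.68 ± 0.37 (limma adjusted p = 0.507, and 0.0641 over 11 arrays). Ascending minus coronary artery was -0.99 ± 0.37 (limma adjusted p = 0.223), and -0.44 ± 0.21 over 11 arrays (limma adjusted p = 0.378). Neither passed, although their groups did not overlap over 12 arrays.

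Descending aorta exceeded superior mesenteric artery in Gja1 by 0.90 ± 0.37 (limma adjusted p = 0.279), and by 0.90 ± 0.19 over 11 arrays, where it passed (limma adjusted p = 0.0114). With the lymphoid covariate on 12 arrays this difference was 0.33 ± 0.26 (limma adjusted p = 0.729). Ascending aorta exceeded it by 0.59 ± 0.37 (limma adjusted p = 0.886), and by 1.15 ± 0.21 over 11 arrays (limma adjusted p = 0.00965). Ascending minus descending aorta was -0.31 ± 0.37, with an interval from -1.11 to 0.48, and 0.24 ± 0.21 over 11 arrays; neither passed (limma adjusted p = 0.813 and 0.892). In the 11-array fits 2 of 4 members, Gja1 and Gja5, passed in both comparisons of an aortic segment with superior mesenteric artery, against 3.15% of all genes for the ascending and 6.83% for the descending segment.

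Heart muscle transcripts stood beside the high Gja1 of coronary artery. Of 14 shared cardiomyocyte genes, 12 were higher in coronary than in superior mesenteric artery and 13 higher than in descending aorta (13 and 13 over 11 arrays), and the list averaged 9.12 ± 0.18 in coronary artery. The part of heart muscle in the Gja1 level was not tested. Gja5, which atrial muscle also expresses, was low on the same arrays, on which a list of 9 atrial genes averaged 7.57 ± 0.35. Lymphoid transcripts were low where Gja1 was high. Over 12 arrays the Pearson r of Gja1 was -0.845 with the B cell and plasma cell list and -0.776 with the T cell and lymph node list, and -0.77 and -0.661 over 11. The B cell list averaged 4.08 ± 0.36 in coronary artery, 4.29 ± 0.52 in descending aorta and 6.12 ± 1.01 in superior mesenteric artery, where its arrays were at 4.97, 6.86 and 6.54 and those of Gja1 between 6.58 and 6.68.

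Gjc1 did not separate the vessels. It was at 3.91, 4.37 and 4.55 in ascending aorta, at 4.79, 4.15 and 4.74 in coronary artery, at 4.54, 4.39 and 4.32 in descending aorta and at 5.17, 3.96 and 4.07 in superior mesenteric artery. Every pair of vessels overlapped. The highest array, superior mesenteric artery replicate 1, was also highest for the smooth muscle, pericyte and general, venous and lymphatic endothelial lists. Across all arrays Gjc1 had a Pearson r of 0.373 with the smooth muscle list. Its r was 0.779 with the pericyte list and 0.684 with the general endothelial list. The widest difference was ascending minus coronary artery at -0.28 ± 0.31, with a 95% interval from -0.95 to 0.38 (limma adjusted p = 0.721). At an unadjusted limma p under 0.05 it passed in 0 of the 6 comparisons. Over 11 arrays the differences lay between -0.10 and 0.16, and none passed (lowest limma adjusted p = 0.827). The intervals of the other pairs lay between -0.80 and 0.82, which leaves room for differences of up to 1.77-fold.

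In the remaining comparisons no member passed over 12 arrays. These were ascending minus descending aorta, where 0.015% of all genes passed, ascending aorta minus coronary artery (2.47%), ascending aorta minus superior mesenteric artery (0.176%) and coronary artery minus descending aorta (3.14%). At an unadjusted limma p under 0.05 the members numbered 0, 2, 1 and 1, against 9.64%, 14.8%, 7.22% and 12.7% of all genes. Over 11 arrays 0 members passed between the aortic segments (0.01% of all genes), and Gja5 alone passed between either segment and coronary artery (3.85% for the ascending and 5.3% for the descending segment). Gja1 alone passed between coronary and superior mesenteric artery in that fit (6.48%). Members whose groups did not overlap numbered 0, 1, 0 and 2, against 15.7%, 19.3%, 9.35% and 22.4% of all genes. The 6 comparisons share arrays and are not independent of each other.

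Of the other listed connexins 12 of 16 were measured, as were all 3 pannexins, which form single-membrane channels. None of these 15 genes passed the F test or any of the 6 comparisons in limma, while 2 of the 12 connexins and 0 of the 3 pannexins had an unadjusted F test p under 0.05, against 16.4% of all genes. Over 11 arrays again none passed, and 0 of the 15 had an unadjusted F test p under 0.05, against 21.7% of all genes. As a list the other connexins averaged between 3.08 and 3.34 on every array. Gjb5, the connexin gene best known from skin and placenta, varied most, from 3.69 in ascending aorta replicate 1 to 5.98 in superior mesenteric artery replicate 2. Gja3, a connexin of the eye lens, was at 5.31, 4.81 and 4.99 in coronary artery and between 4.23 and 4.73 elsewhere.

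**Figure D4:**
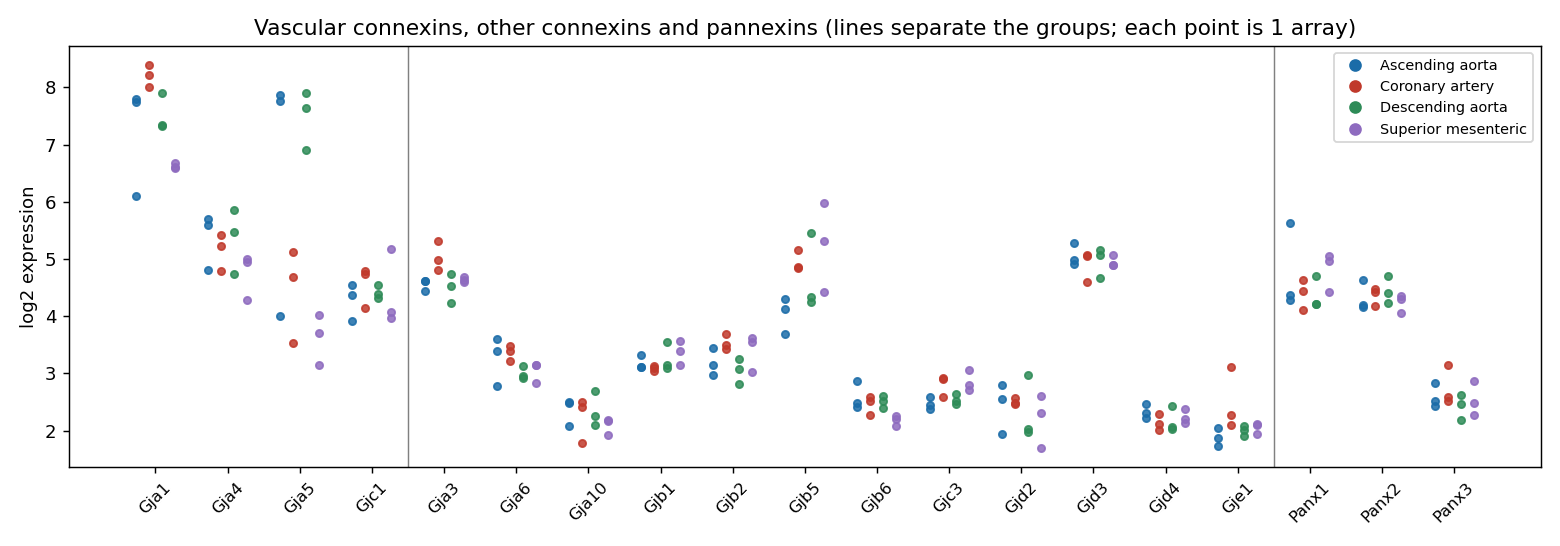
Log2 expression (y axis) of the 4 vascular connexins, 12 other connexins and 3 pannexins (x axis), 1 point per array, coloured by vessel. Gja5 has 5 aortic arrays at 6.91 or above and all branch artery arrays at 5.13 or below. Levels of different genes come from different probes and are not comparable with each other.

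Of 22 measured genes for junction proteins and partners of connexins, 4 passed the F test, against 4.72% of all genes. In coronary artery 6 were higher than in descending aorta (3.14% of all genes) and 4 higher than in superior mesenteric artery (3.24%), with 0 lower in either. Over 11 arrays these counts were 10 for the F test, 8 and 7, again with 0 lower. The shares of all genes were then 9.15%, 5.3% and 6.48%. Dsp, the desmosomal plaque protein desmoplakin, was higher by 2.55 ± 0.37 and 3.77 ± 0.37 in these comparisons, and Cdh2, the adhesion molecule N-cadherin, by 2.11 ± 0.30 and 2.65 ± 0.30. Pkp2, another desmosomal gene, and Cav3, the caveolin of muscle, passed in both as well. These 4 genes are also expressed in heart muscle, whose transcripts were high on the same arrays. Between descending aorta and superior mesenteric artery, the pair with the widest Gja5 difference over 12 arrays, 0 of the 22 passed in limma and 4 had an unadjusted p under 0.05, a share near the 13.9% of all genes. Over 11 arrays Dsp was higher there in the aorta by 1.22 ± 0.28 (limma adjusted p = 0.0192). Tjp1, the scaffold protein ZO-1 that binds Cx43, did not pass in any comparison of either fit.

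Transcription factors known to act on connexin genes in heart or endothelium, and other listed regulators, numbered 25. In coronary artery 4 were higher than in descending aorta, Tbx20, Tbx5, Gata4 and Hopx, in a comparison where 3.14% of all genes passed. The same 4 with Shox2 were higher than in superior mesenteric artery, where 3.24% of all genes passed. Over 11 arrays 4 were higher in coronary artery than in descending aorta and 1 was lower, against 5.3% of all genes. The lower one was Hey2, a Notch target, at -1.88 ± 0.32 (limma adjusted p = 0.00278). Against superior mesenteric artery 6 were higher in that fit and 0 lower, with 6.48% of all genes passing. Heart muscle transcripts were high on the coronary arrays (shared list 9.12 ± 0.18), and their part in these levels was not tested. Tbx5, a T-box factor required for Gja5 expression in the developing heart, was higher in coronary than in descending aorta by 2.53 ± 0.31, while Gja5 was lower there by 3.04 ± 0.82. Between descending aorta and superior mesenteric artery 0 of the 25 passed in limma, and 8 had an unadjusted p under 0.05, against 13.9% of all genes. Over 11 arrays 2 of the 25 were higher in the aorta, Sox17 and Hey2, and 0 were lower. Of 10 measured conduction system genes 1 passed the F test, Kcne1, a potassium channel subunit, against 4.72% of all genes. Kcne1 was higher in coronary artery than in descending aorta by 1.49 ± 0.21. Over 11 arrays 3 of the 10 passed the F test, Kcne1, Isl1 and Smoc2, against 9.15% of all genes. In that fit 2 of the 10 were higher in coronary artery than in descending aorta and 1 was lower, Isl1, at -1.13 ± 0.26 (limma adjusted p = 0.0231). Smoc2 was lower in superior mesenteric artery than in each other vessel.

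Genes with the most similar patterns were ranked by Pearson r over the 12 arrays. For Gja5 these were Acsf3, Rbp4, which encodes a carrier of retinol, Itgbl1, Arhgap5 and Cox8a, a subunit of cytochrome oxidase, with r between 0.947 and 0.964 and between 0.944 and 0.972 over 11 arrays. For Gja1 they were Ankrd40, Iftap, Atp5mpl, Emc2 and Mrpl30, with r between 0.945 and 0.970, and between 0.931 and 0.960 over 11 arrays. Gjc1 was closest to Rgs5, a regulator of G protein signalling found in pericytes and smooth muscle, at r = 0.938 (0.930 over 11 arrays) and a Spearman rho of 0.888, followed by Lamc1, Arhgef40, Aldoart2 and Map4. Gja4 had the least close neighbours, Rarg, Spon1, Mpv17l, Col4a4 and Ano10, with r between 0.855 and 0.899, and between 0.849 and 0.901 over 11 arrays. Among the members themselves, r was 0.415 between Gja1 and Gja5 and 0.121 between Gja5 and Gjc1.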

How the data were processed

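The authors deposited a table of log2 values for 35556 probe sets on 12 arrays, 3 for each of 4 vessels; the submitters' processing notes name RMA and Partek 6.6, with no role or order. The normalization and the genome build of the probes are not given in the sources used here, and the values were taken unchanged. The platform annotation named the probe sets: 21789 had 1 symbol, 1621 several and 12146 none. For the 999 genes with several one-symbol probe sets the one with the highest mean was kept, which gave 19938 genes.

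The 12 arrays were modelled together in limma (version 3.58.1, in R 4.3.3, files read with version 1.17.8 of the data.table package), with a separate mean for each vessel, leaving 8 residual degrees of freedom before moderation. A moderated F test and 6 contrasts were each adjusted by Benjamini-Hochberg over all genes, with a threshold of 0.05. The procedure was tested on simulated data. Members and gene lists were chosen with earlier results of these data known. Named genes are the 4 members, at most 5 of each list by size of difference, listed connexins or pannexins past the F test, cell type markers, and the 5 genes most correlated with each member. Gjb5, Gja3, Tjp1, Shox2, Hey2, Cxcr4, Dll4 and Efnb2 fall outside that rule in places and were named after their values were seen. Promoter windows came from RefSeq GRCm38.p6. Figures used Python 3.11.15 and matplotlib 3.10.9. Alternatives, among them other normalizations, filters, covariates and arrays left out, are given in the closing section; both adipocyte covariate fits were added after the data were seen.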

Additional observations from a re-analysis of the deposited data

How the results depend on the processing

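The Gja5 difference between descending aorta and superior mesenteric artery and the Gja1 difference between coronary and superior mesenteric artery kept their direction under all 29 alternatives. Many of these cannot change a difference, among them the thresholds, the joint adjustment, the variance settings and leaving out an array of another vessel. The Gja5 difference fell to 0.2885 ± 1.051 with the adipocyte covariate on 12 arrays, where it did not pass. Both differences were over 1.5 times smaller with the B cell and T cell covariate (2.51 and 1.01), where they still passed. The count of members past the F test (1 over 12 arrays) was 2 with array weights or the endothelial covariate (Gja1 and Gja5). It was also 2, with the same genes, without 3 arrays that carried another tissue. These 3 were replicate 1 of each aortic segment and replicate 3 of superior mesenteric artery. All coronary artery arrays stayed in, with the shared cardiomyocyte list at 8.92 to 9.25. This setting therefore left their heart muscle transcripts in place. Superior mesenteric artery replicate 2, with the B cell and plasma cell list at 6.86, stayed in too. The count was 0 with an intensity trend and robust variance or at a threshold of 0.01. Leaving out 1 array gave a count of 0 to 2. It stayed 1 with the adipocyte covariate on 12 or 11 arrays, but the gene was then Gja1 and the Gja5 call was lost (limma adjusted p = 0.326 and 0.0596). For ascending aorta minus coronary artery the count of 0 became 1 with array weights, with the B cell and T cell covariate and without the 3 arrays, each time Gja5, and 1 with the adipocyte covariate, there Gja1 at -2.323 (limma adjusted p = 0.003) with Gja5 turned in sign (0 to 1 leaving out 1 array). The share of all genes that passed there went from 2.47% to 4.45%, 4.43%, 3.34% and 9.35% in these settings, in that order. For ascending aorta minus superior mesenteric artery the count of 0 became 1, Gja5, with array weights, the endothelial covariate or the B cell and T cell covariate. It became 2, with Gja1, without the 3 arrays (0 to 2 leaving out 1). The share of all genes went from 0.176% to 2.22%, 0.722%, 1.2% and 1.66% in these settings, in that order. For coronary artery minus descending aorta the count of 0 became 1, Gja5, with array weights, with only the 6 arrays of the pair, or with the endothelial or the B cell and T cell covariate. It became 1, Gja1, with the adipocyte covariate, and 2 without the 3 arrays (0 to 1 leaving out 1). The share of all genes went from 3.14% to 5.49%, 6.32%, 3.91%, 5.12%, 3.52% and 3.63% in these settings, in that order. For coronary minus superior mesenteric artery the count of 1 became 0 at a threshold of 0.01 or adjusted over the 6 comparisons together (0 to 1 leaving out 1). The share of all genes there went from 3.24% to 1.52% and 2.67%. For descending aorta minus superior mesenteric artery the count of 1 became 2 with array weights or only the 6 arrays of the pair. It became 0 at 0.01 and with the adipocyte covariate on 12 or 11 arrays (0 to 2 leaving out 1). The share of all genes there went from 3.2% to 6.8% and 4.69%, and to 1.18%, 0.00502% and 0%, in that order. For ascending minus descending aorta the count was 0 under all alternatives. The cause was not tested for these changes.

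With the replicate number as a block, Gja1 between coronary and superior mesenteric artery no longer passed (limma adjusted p = 0.0584, count 0), and the counts of the other comparisons did not change. In that fit 3.18% of all genes passed between coronary and superior mesenteric artery, against 3.24% without the block. Same-numbered arrays of different vessels did not deviate together (median correlation 0.0167, between -0.251 and 0.0889 over 18 pairs). With 3 arrays per vessel and other tissues on some arrays, this cannot tell whether same-numbered arrays shared an animal. The labels do not say so either way.

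The differences that changed sign had not passed over 12 arrays and did not pass where they turned (limma adjusted p of 0.527 or above). For ascending minus descending aorta, Gja1 turned to 0.05255 with array weights, 0.06715 with the B cell and T cell covariate, 0.4307 without the 3 arrays, 0.371 and 0.2779 with the adipocyte covariate on 12 and 11 arrays, and -0.6078 to 0.242 leaving out 1 array. Gja5 there turned to 0.5401 without the 3 arrays, 0.5132 and 0.2424 with the adipocyte covariate, and -1.601 to 0.3301 leaving out 1. Gja4 turned to -0.02338 after renewed quantile normalization, -0.02187 after median centring, -0.0234 with the endothelial covariate, and -0.2893 to 0.3014 leaving out 1. Gjc1 turned to 0.1079 with the B cell and T cell covariate, 0.106 without the 3 arrays, 0.2652 and 0.3279 with the adipocyte covariate, and -0.2764 to 0.04293 leaving out 1. With the adipocyte covariate on 12 arrays, ascending minus coronary artery turned to -0.3322 for Gja4 and -0.7339 for Gja5, and coronary minus descending aorta to 0.641 for Gja4 and 1.247 for Gja5. In the same fit, descending aorta minus superior mesenteric artery turned to -0.7775 for Gja1, -0.104 for Gja4 and -0.9762 for Gjc1 (-1.943 on 11 arrays), and ascending aorta minus superior mesenteric artery to -0.4065 for Gja1. For Gja4, coronary minus descending aorta was 0.0429 without the 3 arrays and -0.5187 to 0.0429 leaving out 1. For Gja5, coronary minus superior mesenteric artery was -0.5083 with the B cell and T cell covariate. With the endothelial covariate Gjc1 was 0.1045 for ascending minus coronary artery, 0.3375 for ascending aorta minus superior mesenteric artery and -0.2929 for coronary artery minus descending aorta. The Gjc1 difference of ascending aorta minus superior mesenteric artery was also 0.1727 with array weights, and -0.3417 to 0.2615 leaving out 1. For coronary minus superior mesenteric artery it was -0.2101 with the B cell and T cell covariate, -0.006157 without the 3 arrays, and -0.06122 to 0.542 leaving out 1. For descending aorta minus superior mesenteric artery it was -0.3553 with the B cell and T cell covariate, -0.2103 without the 3 arrays, and -0.2023 to 0.4009 leaving out 1.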
